A study of Mus musculus with 12 samples.

Results

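The genes described here are *Cd200r1*, 6 further inhibitory receptor genes of myeloid cells (*Sirpa*, *Pirb*, *Lilrb4a*, *Cd300a*, *Cd300lf* and *Siglece*) and *Ptpn6*, which encodes the phosphatase SHP-1. They were picked by gene name with their response to calcitonin gene-related peptide (CGRP) already known, and are 8 of the 52636 genes in each count table. RNA was sequenced from C57BL/6J mouse bone marrow neutrophils and from bone marrow monocytes grown for 3 days with 10 ng/ml M-CSF, which are called macrophages here and monocytes/macrophages in the sample labels. The mice were 8 to 12 weeks old. Freshly isolated neutrophils and the cultured macrophages were each kept for 4 h with 1 nM CGRP or with saline (PBS), in 4 groups of 3 libraries. Commercial enrichment kits were used for isolation, and neither the labels nor the methods state whether the 3 libraries of a group came from different mice, so that the spread between them may be technical. Total counts ranged from 2002559 to 3631989 per library, and a level resting on 3 counts, the floor used here, is 0.826 CPM (counts relative to the library total) in the deepest library and 1.5 CPM in the shallowest. Levels below are CPM scaled by TMM, a correction for library composition, over the 12 libraries. Libraries were primed at the poly-A tail and levels depend on each transcript's 3′ end, so they are compared between groups for 1 gene, and the most abundant gene named for a marker list is the one with most reads, not an order of transcript levels.

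Inhibitory receptors restrain myeloid cells. Most of them carry immunoreceptor tyrosine-based inhibitory motifs (ITIMs), which Src-family kinases phosphorylate and to which the phosphatases SHP-1, SHP-2 and SHIP-1 then bind, opposing signals from activating receptors that use ITAM adaptors such as DAP12 and the Fc receptor γ-chain. CD200R1 is an exception, because it lacks an ITIM and signals through the adaptors DOK2 and DOK1 and the Ras GTPase-activating protein RASA1. Its ligand CD200 is a membrane protein of many cell types, and that of SIRPα is CD47, the signal by which cells avoid being engulfed.

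The cell labels were checked first. Mean levels only are compared for these markers, with no test, since several had few counts in 1 cell type. All 12 neutrophil markers had a lower mean in saline macrophages, with *Ly6g* at 866 ± 164 CPM (SD, n = 3) in saline neutrophils and 0.539 ± 0.476 CPM in saline macrophages. Of 12 monocyte and macrophage markers, 10 had a higher mean in saline macrophages. The mean was lower there for *Ly6c2* and, at 284 ± 8.63 against 317 ± 10.3 CPM, for *Ccr2*. *Csf1r* stood at 774 ± 133 CPM in macrophages and 201 ± 15.8 CPM in neutrophils (SD, n = 3), so that the neutrophil libraries also held RNA of monocyte genes. The summed level of 8 mast cell and basophil markers was 1121 ± 114 CPM in saline neutrophils and 15.3 ± 1.56 CPM in saline macrophages, led by *Prss34* in both. The 7 eosinophil markers summed to 634 ± 42.5 and 20.9 ± 1.28 CPM, led by *Prg2* in neutrophils and *Ear2* in macrophages. The 10 T, B and NK cell markers summed to 36.1 ± 1.93 and 2.78 ± 1.09 CPM. The 7 dendritic cell markers summed to 35.5 ± 7.64 and 75.9 ± 12.99 CPM, led by *Cd209a* in neutrophils and by *Itgax* (60.05 CPM) in macrophages. The 6 platelet markers summed to 200 ± 5.78 and 764 ± 186 CPM, led in both by *Pf4*, at 142.5 and 759.3 CPM. All other platelet markers had a lower mean in macrophages, as did the dendritic markers other than *Itgax* and *Ccr7*.

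*Cd200r1* was higher with CGRP in neutrophils and lower with CGRP in macrophages. The gene (ENSMUSG00000022667) lies on chr16:44765736-44794978 (GRCm38, plus strand), and no other annotated gene shares its exons. In neutrophils its level was 13.3, 16.0 and 16.9 CPM with saline and 28.6, 23.5 and 26.7 CPM with CGRP, from 42, 52 and 47 against 88, 80 and 61 counts. Every CGRP library lay above every saline library, and the group means were 15.4 ± 1.89 and 26.3 ± 2.61 CPM (SD, n = 3). The log2 fold change was 0.78 with a standard error (SE) of 0.18, a 1.72-fold higher level. In macrophages the saline libraries were at 103, 130 and 110 CPM and the CGRP libraries at 89.0, 67.6 and 62.9 CPM. Here every CGRP library lay below every saline library, the means were 115 ± 13.7 and 73.2 ± 13.9 CPM (SD, n = 3), and the log2 fold change was −0.64 (SE 0.16), a 1.55-fold lower level. The difference between both changes was −1.40 on the log2 scale (SE 0.26), from a fit over the 12 libraries in which 2.36% of 10694 genes had a CGRP effect that differed between cell types past the threshold. These values are a description with no p, since the gene was chosen for this contrast. In order of level, saline macrophages were highest, followed by CGRP macrophages, CGRP neutrophils and saline neutrophils, and no 2 neighbours in that order overlapped.

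**Figure D1:**
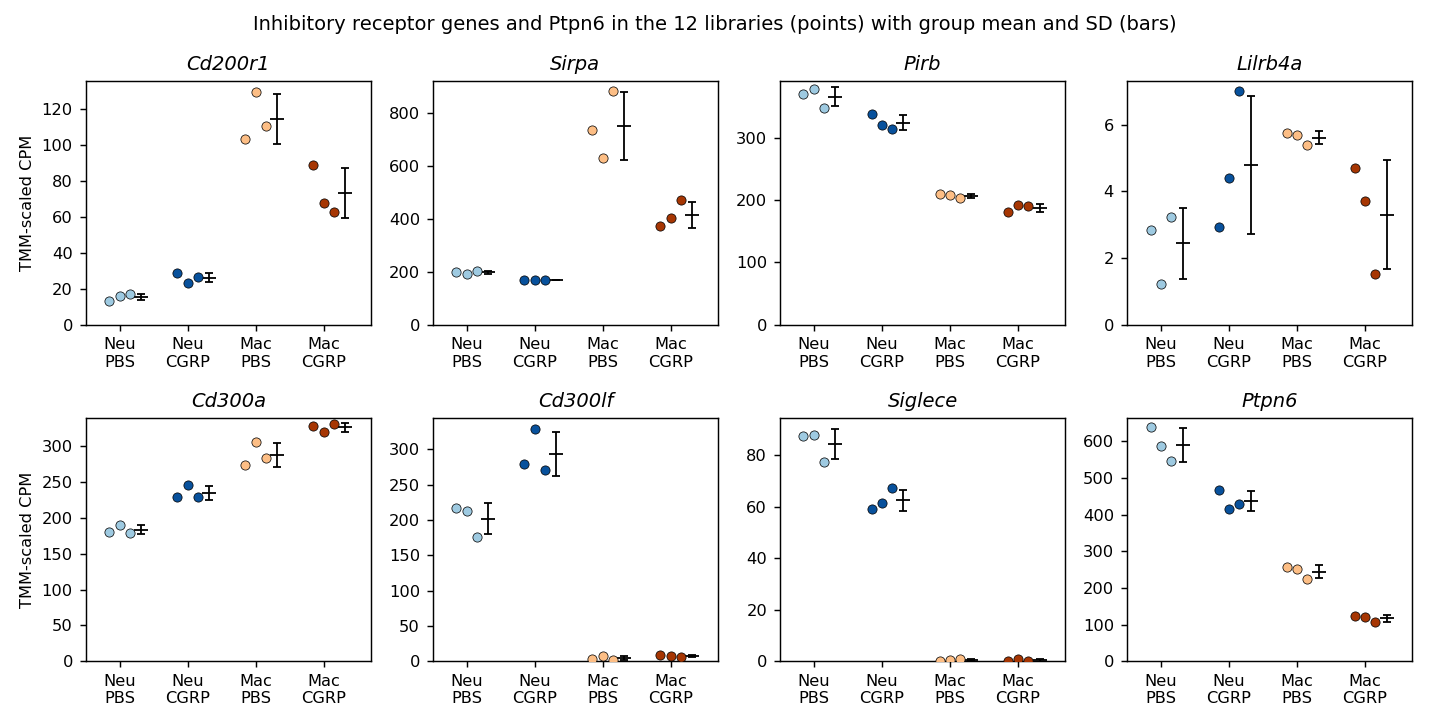
TMM-scaled CPM (vertical axis, linear from 0, a scale of its own for each gene) of the 8 genes in the 12 libraries, with neutrophils (Neu) in blue, macrophages (Mac) in orange and CGRP in the darker shade; each point is 1 library, and the bars give the group mean ± SD (n = 3). *Cd200r1* averages 15.4 and 26.3 CPM in saline and CGRP neutrophils and 115 and 73.2 CPM in saline and CGRP macrophages, while *Cd300lf* and *Siglece* are near 0 in macrophages.

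Markers of other cells that could carry CD200R1 were read beside the neutrophil value. The 8 mast cell and basophil markers, among them *Cd200r3*, a basophil and mast cell receptor of the same family, summed to 1172, 1200 and 990 CPM with saline and to 1156, 978 and 1102 CPM with CGRP. The groups overlapped, none of the 8 was at 0 counts in either group, and none changed in limma-voom, edgeR or DESeq2, with 1 of the 8 (*Kit*, which was lower) at an unadjusted p under 0.05. The 5 eosinophil and 5 dendritic markers that could be tested gave no call by the 3 tools either, and none at an unadjusted p under 0.05. Of 11 monocyte and macrophage markers tested in neutrophils, *Ccr2* and *Lyz2* fell and none rose, although *Lyz2* was not called by edgeR (adjusted p = 0.16, against 0.030 in limma-voom). *Adgre1* averaged 41.2 ± 5.75 CPM in the saline and 28.7 ± 1.32 CPM in the CGRP libraries (SD, n = 3). The 12 neutrophil markers and the 4 lymphoid markers tested gave no call there by any of the 3 tools (3 and 0 at an unadjusted p under 0.05), and 1 of 5 platelet markers, *Itgb3*, fell. In macrophages *Ccr2* again fell among 12 monocyte and macrophage markers, while the other 11 had log2 fold changes above 0 and were not called (list median 0.21, and 4 of the 12 at an unadjusted p under 0.05). *Cd4* (7, 3 and 10 counts in saline libraries against 20, 14 and 15 in CGRP libraries) reached the level asked by the filter on low counts, 10 counts in a library of median size, only in the CGRP group, so that no call is given for it. The mast cell, eosinophil, dendritic and platelet lists gave no call by the 3 tools, with 0 of 2, 1 of 3, 2 of 3 and 0 of 2 at an unadjusted p under 0.05. None of 8 neutrophil markers was called in macrophages by the 3 tools either, with 2 at an unadjusted p under 0.05. All 8 had log2 fold changes above 0 (list median 0.38). In bulk libraries fewer cells of a type and less RNA per cell cannot be told apart, which holds for each level given here.

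Of the other receptors, *Sirpa* was lower with CGRP in macrophages. *Sirpa* (ENSMUSG00000037902, chr2:129592835-129632228) encodes the CD47 receptor SIRPα. In macrophages the saline libraries held 735, 627 and 883 CPM of it and the CGRP libraries 372, 403 and 469 CPM. All 3 CGRP libraries lay below the lowest saline library, with a log2 fold change of −0.84 (SE 0.15), a 1.79-fold lower level. In neutrophils the values were 199, 193 and 204 CPM against 168, 168 and 169 CPM. The groups did not overlap there either, with a log2 fold change of −0.22 (SE 0.08) that was past the threshold in none of the fits.

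*Ptpn6* (ENSMUSG00000004266, chr6:124720707-124738714), whose product SHP-1 is recruited by the ITIM receptors, had the largest fold change of the 8 genes in macrophages after *Cd300lf*, which is given below with its few counts. Macrophage levels were 258, 253 and 223 CPM with saline against 124, 121 and 107 CPM under CGRP. That is 2.07-fold lower (log2 fold change −1.05, SE 0.13). Neutrophil levels were 638, 586 and 547 CPM with saline against 467, 415 and 429 CPM under CGRP (log2 fold change −0.42, SE 0.08). In both cell types all CGRP libraries were below all saline libraries. An opposite-strand gene overlaps 6.96% of the exonic bases of *Ptpn6*, with at most 7 counts in any library, against 213 or more counts of *Ptpn6*.

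*Cd300a* and *Cd300lf*, of the CD300 cluster, were higher with CGRP in neutrophils. CD300A, an inhibitory receptor for phosphatidylserine and phosphatidylethanolamine on dying cells, is encoded by *Cd300a* (ENSMUSG00000034652, chr11:114890041-114904654). *Cd300a* was at 180, 190 and 179 CPM in saline neutrophils and at 229, 245 and 229 CPM in CGRP neutrophils, a log2 fold change of 0.37 (SE 0.08). In macrophages the saline libraries gave 273, 305 and 282 CPM and the CGRP libraries 328, 319 and 330 CPM, a change of 0.19 (SE 0.12). The groups did not overlap in either cell type. *Cd300lf* (ENSMUSG00000047798, chr11:115116214-115133992), which encodes another lipid-binding inhibitory receptor of the cluster, was at 217, 212 and 177 CPM in saline neutrophils. With CGRP it was at 280, 329 and 271 CPM, above every saline library, with a log2 fold change of 0.55 (SE 0.10). Of the 31-base sequences of its longest transcript, 5.21% occur in other annotated genes, most of all in *Cd300ld*. In the last 500 bases the share was 8.94%. In macrophages *Cd300lf* was counted 14, 24 and 4 times in saline libraries and 29, 20 and 13 times in CGRP libraries. These groups overlapped, and the fitted change of 1.06 had an SE of 0.44. The 12 neutrophil markers summed to 338, 395 and 303 CPM in saline macrophages and to 448, 427 and 418 CPM in CGRP macrophages, with no overlap. None of the 8 that could be tested was called in limma-voom, edgeR or DESeq2 (2 at an unadjusted p under 0.05), and the part of neutrophil RNA in the macrophage values of *Cd300lf* was not tested.

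*Siglece* (ENSMUSG00000030474, chr7:43651070-43660161) encodes Siglec-E, a receptor for sialic acids. Its neutrophil level was 87.3, 87.8 and 77.5 CPM in saline libraries against 59.2, 61.3 and 67.1 CPM in CGRP libraries. The groups did not overlap, and the log2 fold change was −0.42 (SE 0.11), a 1.34-fold lower level. Saline macrophages had 1, 2 and 3 counts and CGRP macrophages 0, 3 and 0, at or under the floor, so that no change with CGRP is given there.

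*Pirb* (ENSMUSG00000058818, chr7:3711409-3720391), a receptor for MHC class I, was not past the threshold in either cell type in any fit. Saline neutrophils stood at 371, 379 and 349 CPM and CGRP neutrophils at 338, 321 and 314 CPM (log2 fold change −0.16, SE 0.08), and macrophages at 210, 209 and 204 against 181, 192 and 191 CPM (−0.14, SE 0.12). Its neighbours encode the activating PIR-A receptors, and 45.3% of the 31-base sequences of its longest transcript occur in another annotated gene, so its counts are uncertain. In the last 500 bases, nearest the poly-A tail from which the libraries were primed, the share was 14%.

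*Lilrb4a* (ENSMUSG00000112148, chr10:51490956-51496611), which encodes the ITIM receptor gp49B, is the least certain of the 8. It had 9, 4 and 9 counts in saline neutrophils, 9, 15 and 16 in CGRP neutrophils, 20, 19 and 15 in saline macrophages and 15, 10 and 3 in CGRP macrophages. The neutrophil groups overlapped and the macrophage groups did not, with log2 fold changes of 0.93 (SE 0.46) and −0.75 (SE 0.42). A read-through gene on the same strand covers 35.3% of its exonic bases, and 98.7% of the 31-base sequences in the last 500 bases of its longest transcript occur in that gene or in its neighbour *Lilr4b*. The tables give the read-through gene the name *Lilrb4a* as well, on a row with 0 counts in every library, which is why 9 rows carry the 8 names. *Lilr4b* encodes gp49A, which has no ITIM, and was at 209 ± 11.7 CPM in saline neutrophils, 319 ± 17.3 in CGRP neutrophils, 334 ± 49.8 in saline macrophages and 274 ± 34.5 in CGRP macrophages (SD, n = 3). With the rows of the 3 genes summed, the log2 fold changes were 0.63 (SE 0.08) in neutrophils and −0.28 (SE 0.14) in macrophages, beside 0.62 and −0.28 for *Lilr4b* alone.

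**Figure D2:**
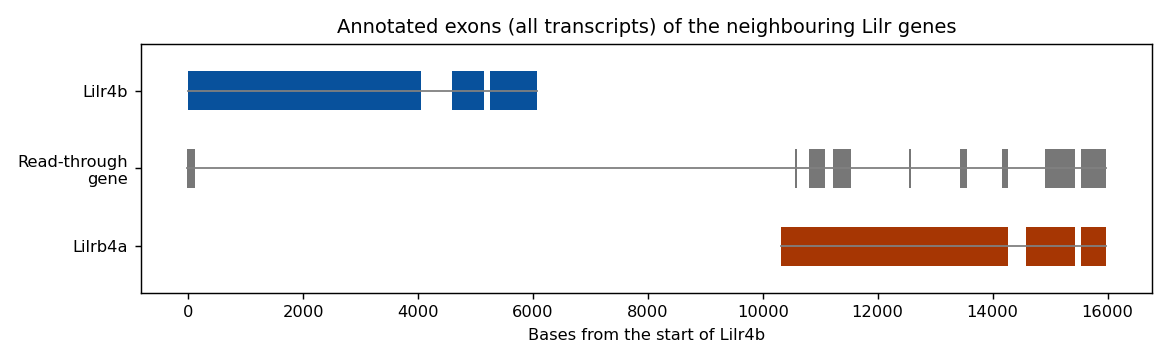
Annotated exons over all transcripts (boxes) of *Lilr4b*, the read-through gene and *Lilrb4a*, with the distance in bases from the start of *Lilr4b* on the horizontal axis. The exons of the read-through gene fall on those of *Lilrb4a* except for the first, which falls on *Lilr4b*.

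Across the 8 genes, 5 of 8 were past the adjusted p threshold of 0.05 in limma-voom in neutrophils, where 2.53% of the 9819 genes tested were, and 3 of the 7 that could be tested in macrophages, where 7.43% of 9393 were. The difference between the cell types was past it for 2 of 8, *Cd200r1* and *Ptpn6* (3 of 8 in DESeq2), against 2.36% of all genes. Groups did not overlap for 7 of 8 in neutrophils (17.8% of all genes) and for 6 of 7 in macrophages (24.1% of all genes). Nothing is read from these counts, because the genes were chosen from the same contrasts. Leaving out 1 library at a time kept the sign of each of these fold changes. The log2 fold change of *Cd200r1* then lay between 0.68 and 0.87 in neutrophils, and in macrophages between −0.80 and −0.54. Its change was past the threshold in 3 of the 6 such fits in neutrophils (not without saline replicate 1 or 2 or CGRP replicate 1) and in 2 of the 6 in macrophages (not without saline replicate 1 or 2 or CGRP replicate 2 or 3). In neutrophils *Siglece* and *Cd300a* were each past it in 2 of the 6 (*Siglece* not without saline or CGRP replicate 1 or 2, *Cd300a* not without any saline replicate or CGRP replicate 2), and *Siglece* in 4 of the 9 other settings. *Ptpn6* was past it there in 5 of 6 (not without saline replicate 1). The value moved most for the genes with few counts, between 0.49 and 1.23 for *Lilrb4a* in neutrophils, between −1.07 and −0.39 for it in macrophages and between 0.54 and 1.55 for *Cd300lf* in macrophages.

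**Figure D3:**
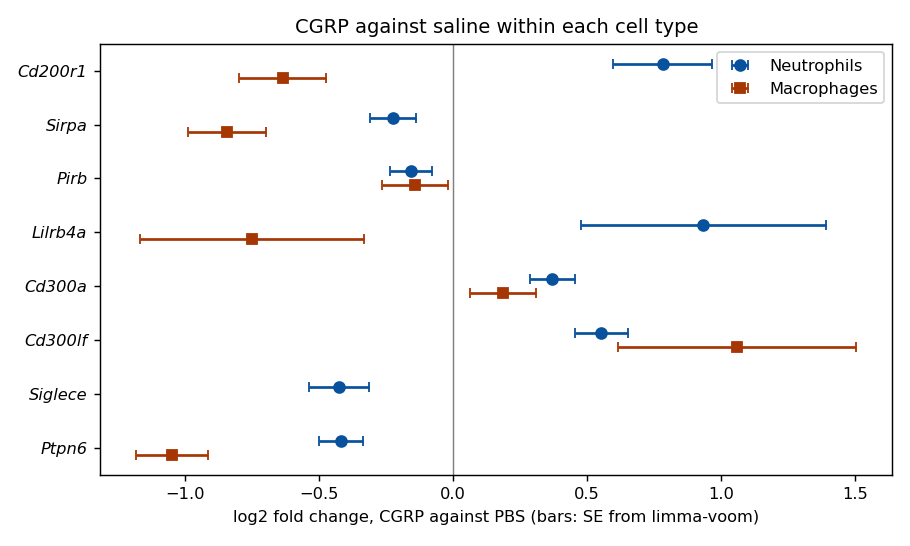
Log2 fold change of CGRP against PBS (horizontal axis) for the 8 genes (rows), in neutrophils (circles) and macrophages (squares), with bars of 1 SE from limma-voom; *Siglece* has no macrophage value. *Cd200r1* lies at 0.78 in neutrophils and −0.64 in macrophages, and *Ptpn6* and *Sirpa* lie left of 0 in both.

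The saline libraries, which the choice of genes did not use as a comparison, showed how the receptors divide between both cell types before CGRP. In limma-voom 68.5% of the 10186 genes tested differed between saline macrophages and saline neutrophils (33% higher and 35.5% lower in macrophages). A gene that reaches the filter on low counts in 1 cell type only enters the test because it is high there, so tests are given for the 5 of 8 genes that reached it in all 6 libraries. Among all such genes 65.7% of 7953 differed, and of the 5, 3 were higher and 2 lower in macrophages. *Cd200r1* was 7.41-fold higher in macrophages (log2 fold change 2.89, SE 0.18, adjusted p = 8.6e-11) and *Sirpa* 3.73-fold (1.90, SE 0.12, adjusted p = 1.6e-10). *Cd300a* was 1.57-fold higher (0.65, SE 0.11, adjusted p = 3.6e-05). *Pirb* was 1.76-fold lower in macrophages (log2 fold change −0.82, SE 0.11, adjusted p = 1.7e-06) and *Ptpn6* 2.41-fold lower (−1.27, SE 0.11, adjusted p = 9.8e-09). The other 3 genes are given by their counts, with no test. From summed counts, the neutrophil level of *Siglece* was 135 times that of macrophages (777 against 6 counts, 95% exact interval 61.8 to 370) and that of *Cd300lf* 46.5 times (1870 against 42 counts, 34.3 to 64.7). *Lilrb4a* lay the other way, with a neutrophil level 0.425 times that of macrophages (22 against 54 counts, 0.247 to 0.710). These intervals cover counting error only, and for *Lilrb4a* not the sequence it shares with *Lilr4b* and the read-through gene. The counts of *Pirb*, which also shares sequence with other genes, are uncertain in this comparison as well. Cell type cannot be told apart here from the isolation kit, the medium and the 3 days of culture.

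**Figure D4:**
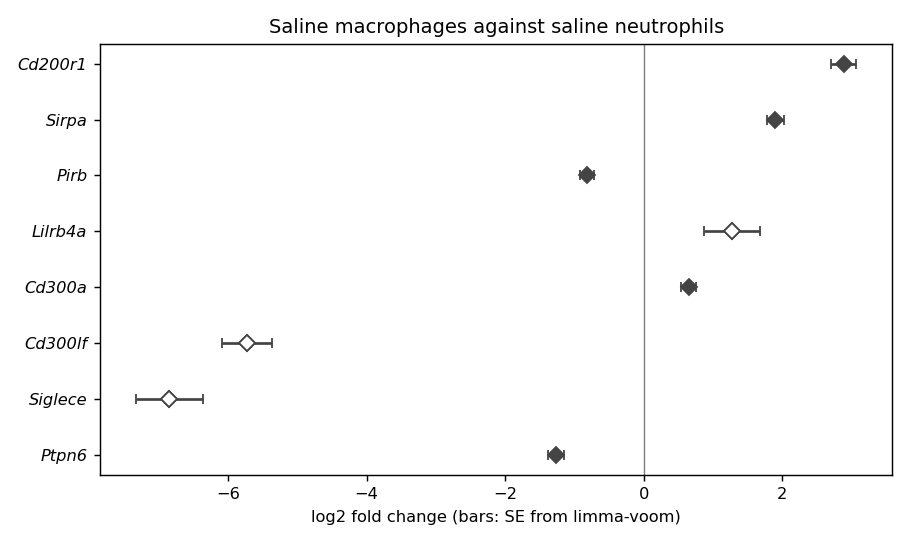
Log2 fold change of saline macrophages against saline neutrophils (horizontal axis) for the 8 genes (rows), with bars of 1 SE from limma-voom. *Cd200r1*, *Sirpa*, *Lilrb4a* and *Cd300a* lie right of 0 (higher in macrophages), and *Siglece* and *Cd300lf* lie far to the left, at −6.85 and −5.72; open symbols mark the 3 genes that reached the filter level in 1 cell type only.

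Promoter sequences are shown for receptors on both sides of this division, and were searched for a motif of PU.1, a transcription factor of myeloid cells. RefSeq promoter windows (GRCm38.p6, from 250 bases before to 50 bases after the gene's start) were at hand for 5 of the 8 genes, namely *Pirb*, *Cd300a*, *Cd300lf*, *Siglece* and *Ptpn6*. They were searched on both strands for the PU box GAGGAA, the core sequence that PU.1 binds, for the cyclic AMP response element TGACGTCA, to which factors downstream of the CGRP receptor bind, and for its half-site TGACG, which the full element contains. A PU box was found in 4 of the 5 (28.3% of all 32851 promoter windows hold it), with 3 matches in *Pirb*, 3 in *Siglece*, 2 in *Cd300lf*, 1 in *Cd300a* and 0 in *Ptpn6*. TGACGTCA (1.79% of all windows) and TGACG (20.8%) were found in none of the 5, which says only that these letters are not in these windows. The windows of the most neutrophil-restricted pair and of *Cd300a*, which was higher in macrophages, are shown 5′ to 3′ on the gene's strand with PU boxes (GAGGAA, or TTCCTC on the other strand) in capitals. They lie on chr11:115133943-115134242 (minus strand), chr7:43660112-43660411 (minus strand) and chr11:114889791-114890090 (plus strand). A match is a description and not a binding site.
Cd300lf: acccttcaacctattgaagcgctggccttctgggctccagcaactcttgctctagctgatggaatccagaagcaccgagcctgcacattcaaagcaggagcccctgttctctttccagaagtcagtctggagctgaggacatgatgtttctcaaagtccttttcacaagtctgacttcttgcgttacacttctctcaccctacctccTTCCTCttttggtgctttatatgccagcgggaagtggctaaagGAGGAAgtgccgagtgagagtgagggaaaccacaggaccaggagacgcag
Siglece: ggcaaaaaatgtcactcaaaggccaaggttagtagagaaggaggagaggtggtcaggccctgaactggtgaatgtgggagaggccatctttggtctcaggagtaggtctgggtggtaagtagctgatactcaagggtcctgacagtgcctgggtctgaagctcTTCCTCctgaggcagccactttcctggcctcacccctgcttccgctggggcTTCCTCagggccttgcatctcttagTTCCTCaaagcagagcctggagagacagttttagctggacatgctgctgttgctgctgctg
Cd300a: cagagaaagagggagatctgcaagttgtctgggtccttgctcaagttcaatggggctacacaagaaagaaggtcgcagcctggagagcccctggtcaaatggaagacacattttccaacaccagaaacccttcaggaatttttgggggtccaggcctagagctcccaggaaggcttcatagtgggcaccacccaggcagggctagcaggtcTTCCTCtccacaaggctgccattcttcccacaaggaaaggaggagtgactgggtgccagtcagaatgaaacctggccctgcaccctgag
Genes on both sides of the division in level held the box, as *Siglece* (3 matches) and *Cd300a* (1 match) show. *Cd300a* was the only gene higher in macrophages with a window at hand, and a link between the box and the level was not tested.

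The 91 genes found around these receptors (paralogues, ligands, signalling proteins, other inhibitory receptors and activating receptors) were tested in the fits across all genes. In neutrophils 3 of the 73 that could be tested rose and 2 fell, 6.85% against 2.53% of all genes. In macrophages 4 of 66 rose and 8 fell, 18.2% against 7.43% of all genes. The lists were written with earlier results of these data known, so these shares are a description of the lists.

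Among genes of the same families, 2 of 13 rose in neutrophils and none fell. *Lilr4b* rose 1.54-fold (log2 fold change 0.62, SE 0.08, adjusted p = 0.00011, limma-voom), from 219, 212 and 196 CPM to 335, 321 and 301 CPM. *Cd300ld*, a receptor of the CD300 cluster that pairs with the activating γ-chain, rose by 0.50 (SE 0.09, adjusted p = 0.0022), from 166, 169 and 162 CPM to 260, 213 and 228 CPM. The list's median log2 fold change was 0.05, against 0.00 over all genes. Other genes of the CD300 family were not called, with 0.05 (SE 0.08) for *Cd300lb*, 0.22 (SE 0.12) for *Cd300c2* and −0.07 (SE 0.29) for *Cd300lg*. In macrophages none of 10 was called in limma-voom, edgeR or DESeq2 (1 at an unadjusted p under 0.05), with a median of 0.11. The CD200R paralogues had few counts. *Cd200r4*, an activating family member, had between 33 and 46 counts in saline macrophages and between 18 and 38 with CGRP (log2 fold change −0.17, SE 0.25, adjusted p = 0.77), and *Cd200r2* had at most 1 count in any library. *Cd200r3* was at 8.09 ± 2.05 CPM in saline neutrophils and 8.30 ± 1.12 CPM with CGRP (SD, n = 3), overlapping values unlike those of *Cd200r1*.

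No ligand gene was called by limma-voom, edgeR or DESeq2 in either cell type, out of 5 tested in neutrophils (0 at an unadjusted p under 0.05) and 6 in macrophages (4 at an unadjusted p under 0.05). *Cd200* itself, the ligand of CD200R1, had 32, 30 and 25 counts in saline macrophages and 18, 17 and 9 with CGRP. These groups did not overlap, yet the log2 fold change of −0.68 (SE 0.30) missed the threshold (adjusted p = 0.22). *Cd47* changed by 0.08 (SE 0.08) in neutrophils and 0.09 (SE 0.13) in macrophages, with overlapping groups in both.

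Of 18 signalling genes tested in macrophages, 4 fell and none rose, with a list median of −0.14 against 0.00 over all genes. In neutrophils 0 of 18 were called by limma-voom, edgeR or DESeq2, with 6 at an unadjusted p under 0.05 and a median of −0.09. The gene with the smallest adjusted p was *Dok2*, which encodes the adaptor of CD200R1. It fell by 1.14 (SE 0.15, adjusted p = 0.00011), from 187, 207 and 180 CPM to 102, 83.5 and 73.5 CPM in macrophages, and in neutrophils its groups overlapped at 32.3 ± 2.61 and 31.6 ± 8.12 CPM (SD, n = 3). *Dok1*, the second DOK adaptor, fell by 0.54 (SE 0.16, adjusted p = 0.044), but kept the call in 1 of 6 fits that left out a library. *Rasa1*, the next protein in that pathway, missed the threshold (−0.70, SE 0.21, adjusted p = 0.057). *Fyb*, an adaptor of integrin signalling, fell by 0.62 (SE 0.12, adjusted p = 0.0043). *Inppl1*, which encodes the lipid phosphatase SHIP-2, fell by 0.94 (SE 0.22, adjusted p = 0.014). The other ITIM phosphatase genes, *Ptpn11* (SHP-2) and *Inpp5d* (SHIP-1), changed by −0.01 (SE 0.17) and 0.10 (SE 0.22) in macrophages, with overlapping groups, beside the −1.05 of *Ptpn6*.

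**Figure D5:**
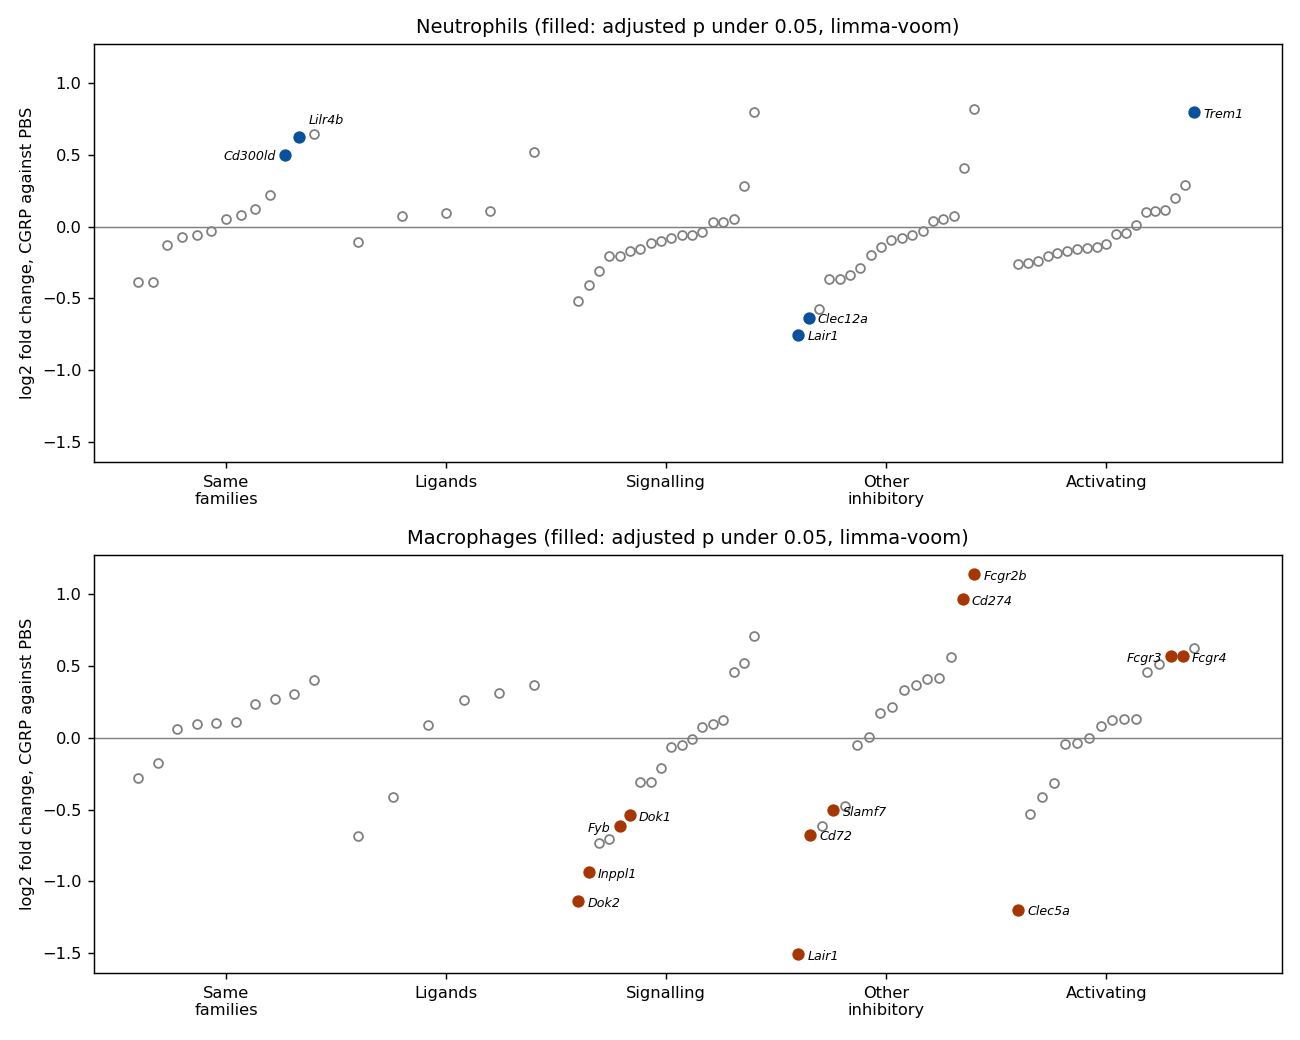
Log2 fold change of CGRP against PBS (vertical axis) for the genes of each list that could be tested (horizontal axis, ordered by value within a list), in neutrophils above and macrophages below; filled, named points passed an adjusted p of 0.05 in limma-voom and open points did not. *Lair1* lies below 0 in both panels, and the 4 called signalling genes lie below 0 in macrophages.

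Other inhibitory receptors changed in both directions. *Lair1*, a receptor for collagen that recruits SHP-1, fell in both cell types. It went from 42.7, 45.4 and 43.6 CPM to 27.0, 27.6 and 21.9 CPM in neutrophils (log2 fold change −0.75, SE 0.15, adjusted p = 0.0049) and from 82.1, 104 and 71.9 CPM to 32.3, 30.7 and 25.7 CPM in macrophages (−1.51, SE 0.19, adjusted p = 6.9e-05). *Clec12a*, an inhibitory lectin receptor, fell by 0.63 in neutrophils (SE 0.08, adjusted p = 6.8e-05), from 312, 332 and 304 CPM to 209, 198 and 197 CPM. These 2 were the called genes among 18 tested in neutrophils. *Fcgr2b*, the inhibitory Fcγ receptor, rose 2.20-fold in macrophages, from 135, 138 and 147 CPM to 291, 313 and 318 CPM (log2 fold change 1.14, SE 0.12, adjusted p = 1.9e-05). *Cd274*, which encodes PD-L1 and is a ligand rather than an ITIM receptor, rose by 0.97 (SE 0.25, adjusted p = 0.028), from 27, 29 and 28 counts to 46, 50 and 39. *Cd72* (−0.68, SE 0.18, adjusted p = 0.033) and *Slamf7* (−0.51, SE 0.14, adjusted p = 0.037) fell, which makes 2 up and 3 down among 16 tested in macrophages. *Slamf7* kept the call in 0 of 6 fits that left out a library, and *Cd72* and *Cd274* in 2 of 6 each.

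The activating receptors gave 1 call among 19 in neutrophils and 3 among 16 in macrophages. *Trem1*, a DAP12-coupled amplifier of inflammatory signals, rose 1.74-fold in neutrophils, from 87.9, 93.3 and 93.3 CPM to 157, 165 and 148 CPM (log2 fold change 0.80, SE 0.10, adjusted p = 2.8e-05). In macrophages the activating Fcγ receptor genes *Fcgr3* (0.57, SE 0.15, adjusted p = 0.028) and *Fcgr4* (0.57, SE 0.14, adjusted p = 0.016) rose beside the inhibitory *Fcgr2b*, and *Clec5a*, another DAP12-coupled receptor, fell by 1.20 (SE 0.31, adjusted p = 0.027). Of the 12 macrophage calls, *Fcgr2b*, *Lair1*, *Dok2* and *Fyb* were kept when any 1 library was left out. The other 8 were all lost without saline replicate 1 and without CGRP replicate 2, and 6 of them without CGRP replicate 3. Without CGRP replicate 1, saline replicate 2 or saline replicate 3, 3 of them were lost in each case. *Fcgr3* kept its call in 1 of 6 such fits. The 5 neutrophil calls were kept without any 1 library.

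Of the genes around the receptors, 57 reached the filter level in all 6 saline libraries, and 80.7% of these differed between cell types, against 65.7% of all such genes, with 20 higher and 26 lower in macrophages. *Cd33*, a Siglec, was lower in macrophages (log2 fold change −5.10, SE 0.24, adjusted p = 1.2e-12). *Cd47* was 2.15-fold lower (−1.11, SE 0.11, adjusted p = 4.4e-08), where its receptor gene *Sirpa* was higher. *B2m*, the light chain of MHC class I, was higher by 0.46 (SE 0.11, adjusted p = 0.00087). The Src-family kinase gene *Fgr* (−3.16, SE 0.13, adjusted p = 2.8e-13) and *Ceacam1*, an ITIM adhesion receptor (−5.22, SE 0.31, adjusted p = 4.4e-11), were lower. Other named genes did not reach the filter level in all libraries of 1 cell type and are given by their counts, with no test. *Cd200* had 3, 5 and 5 counts in saline neutrophils against 32, 30 and 25 in saline macrophages, *Siglec1*, a macrophage Siglec that lacks an ITIM, had 0, 1 and 1 against 39, 36 and 27, and *Inppl1* had 7, 9 and 2 against 165, 120 and 150. The other way round, *Trem1* had 278, 304 and 259 counts in saline neutrophils against 4, 1 and 3 in saline macrophages, and *Trem3* 2273, 2284 and 1785 against 18, 10 and 5. Summed over 3 libraries, *Lilra6* had 559 counts against 17, *Pag1* 542 against 31, *Cd101* 522 against 27, *Klra2* 151 against 6 and *Treml2* 740 against 21.

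The genes whose level was most like that of *Cd200r1* were *Tnip3*, *Exoc5*, *Msr1*, *Bcl2a1b* and *Tubb6*, with Pearson's r of log2 CPM between 0.979 and 0.996 over the 12 libraries, among 10693 genes compared. The 12 points fall into 4 groups and the cell types differ most, so that r mainly reflects the group levels. *Tnip3*, an inhibitor of NF-κB signalling, averaged 8.91 CPM in saline neutrophils, 16.1 in CGRP neutrophils, 121 in saline macrophages and 63.8 in CGRP macrophages, the same order of groups as *Cd200r1*. *Msr1*, a scavenger receptor, averaged 35.6, 46.0, 151 and 113 CPM in that sequence. *Bcl2a1b* belongs to a family of near-identical copies, and its counts are uncertain. Among the 8 genes themselves, *Cd200r1* was most like *Sirpa* (r = 0.904), *Pirb* most like *Siglece* (0.982), *Ptpn6* most like *Pirb* (0.946), *Cd300lf* most like *Siglece* (0.953), *Cd300a* most like *Cd200r1* (0.886) and *Lilrb4a* most like *Cd200r1* (0.464).

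The CGRP receptor genes were measured in the same libraries. *Ramp1* fell in neutrophils from 263 ± 14.0 to 189 ± 12.3 CPM (SD, n = 3, log2 fold change −0.46, SE 0.09, adjusted p = 0.0034). The macrophage groups of *Ramp1* overlapped at 116 ± 14.9 and 108 ± 14.1 CPM. *Calcrl* fell in macrophages from 18.0 ± 4.83 to 5.09 ± 0.966 CPM (−1.75, SE 0.33, adjusted p = 0.0033). In neutrophils *Calcrl* was at 30.2 ± 4.40 and 18.8 ± 4.48 CPM, with groups that did not overlap, and missed the threshold (−0.64, SE 0.19, adjusted p = 0.086). The difference between the cell types was not past the threshold for *Ramp1* (adjusted p = 0.32) or *Calcrl* (adjusted p = 0.19).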

How the data were processed

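Per the labels, RNA-seq libraries were made with poly-A priming and unique molecular identifiers. Per the study's methods, the nfCore/RNAseq (v3.2) pipeline was run with its function for these identifiers, STAR aligned the reads to GRCm38 and featureCounts counted them per gene. The authors deposited raw counts, 1 table per cell type. The annotation release and strand setting are not given in the sources used here. Exons and positions came from GENCODE M21 (52489 of 52636 identifiers matched).

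Genes were kept by edgeR's filterByExpr, scaled by TMM and compared with limma-voom (two-sided, Benjamini–Hochberg adjustment over all genes tested, threshold 0.05): CGRP against saline on the 6 libraries of a cell type, saline macrophages against saline neutrophils on the 6 saline libraries, and the difference between the CGRP effects on all 12. The 8 genes and all lists were chosen with earlier results of these data known. No p is given for the 8 genes with CGRP, nor between the cell types (saline levels or CGRP effects) for genes that reached the filter's level (10 counts in a library of median size) in all 3 libraries of 1 cell type only, a rule chosen after seeing the data. All 8 are named. From each list of related genes, called genes are named, at most 5 with CGRP (by adjusted p) and 3 in the saline comparison (by size), with sequence-sharing paralogues, the CGRP receptor genes and the genes most like *Cd200r1*. Marker genes and the members of the CD200 and ITIM pathways that were not called were named after their values were seen. One gene of the signalling list is not reported here and is left out of the list's counts.

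Other settings tried were DESeq2, its size factors within limma-voom, edgeR's quasi-likelihood test, plain library size, no filter, at least 10 counts in every library, the replicate number as a block, thinning to the smallest library, a single fit over the 12 libraries, leaving out each library and, chosen after seeing the data, summing the *Lilr* rows. The steps were tested on simulated data. Versions were limma 3.58.1, DESeq2 1.42.0 and edgeR 4.0.16 in R 4.3.3, with Python 3.11.15.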

Additional observations from a re-analysis of the deposited data

Results flagged for a closer look

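For *Cd200r1* all 3 CGRP libraries lay above the saline libraries in neutrophils and all 3 lay below them in macrophages, with a difference of −1.40 on the log2 scale (macrophage change less neutrophil change); the gene was part of the fit across all genes, but no p is given and the difference is not counted as tested, because the gene was chosen for it. The difference was −0.62 (SE 0.15) for *Ptpn6* and −0.61 (SE 0.17) for *Sirpa*, also given with no p. Of the genes around the receptors that reached the filter level in both cell types, 3 passed an interaction test in limma-voom over the 12 libraries, in which 2.36% of 10694 genes did so. *Fcgr2b* had a difference of 1.49 (SE 0.16, adjusted p = 3.8e-06), with 3 of 3 CGRP libraries higher in macrophages and 3 of 3 lower in neutrophils, and kept the call without any 1 of the 12 libraries. Its neutrophil change alone, −0.34 (SE 0.11), missed the threshold (adjusted p = 0.13, limma-voom). *Lilr4b*, which shares sequence with *Lilrb4a*, had a difference of −0.89 (SE 0.17, adjusted p = 0.0032), and the summed rows gave −0.90. *Dok2* had a difference of −1.05 (SE 0.23, adjusted p = 0.012), and lost the call without saline neutrophil replicate 1 (adjusted p = 0.051) and without CGRP neutrophil replicate 3 (adjusted p = 0.052). *Pecam1*, an ITIM-bearing adhesion receptor, had a fitted difference of 3.06 (SE 0.79), given with no p because the gene reached the filter level in neutrophils only. It had 0, 2 and 6 counts in saline macrophages against 12, 6 and 13 with CGRP. Its fitted difference lay between 1.93 and 3.94 over the other settings and the fits without 1 library.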

How the results depend on the processing

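The fold changes of *Cd200r1* moved by less than the spread between libraries (SD of log2 CPM), with 0.73 to 0.84 in neutrophils and −0.72 to −0.63 in macrophages over the 9 settings that keep all libraries, and 0.68 to 0.87 and −0.80 to −0.54 without 1 library. In neutrophils it was past the threshold in 7 of the 9, but not after thinning or in the single fit. The single fit over 12 libraries called 137 genes in neutrophils and 1050 in macrophages (248 and 698 in separate fits), 23 of the genes around the receptors in macrophages (12) and 2 of the 8 in neutrophils (5), and thinning called 3 of the 8 there. At least 10 counts in every library left 5 of the 8 called in the saline comparison, since the other 3 could not be tested. Leaving out a library gave 138 to 234 calls in neutrophils (138 without saline replicate 1 or 2, 153 without CGRP replicate 2), 347 to 765 in macrophages (347 without saline replicate 1, 348 and 439 without CGRP replicates 2 and 3), 149 to 328 for the interaction (149 without macrophage saline replicate 1), 4 to 15 of the genes around the receptors in macrophages and 1 to 5 of the 8 genes in neutrophils (1 and 2 without saline replicates 1 and 2, 3 without CGRP replicate 1 or 2). Library size without TMM gave 150 higher and 64 lower in neutrophils (148 and 100 with TMM), 245 and 405 in macrophages (325 and 373), 3556 and 3249 in the saline comparison (3361 and 3614), and 88 and 154 for the interaction (129 and 123), whose median moved from 0.02 to −0.10.

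Same-numbered libraries did not deviate together (correlations of −0.01 to 0.14 in neutrophils and −0.18 to 0.27 in macrophages), so the numbers do not show a pairing. With the replicate block 266 genes were called in neutrophils, 915 in macrophages, 7248 in the saline comparison, 295 for the interaction, and 20 of the genes around the receptors in macrophages. Depth limits *Siglece* and *Cd300lf* in macrophages, where a few counts decide the value. A few counts also decide the value of *Lilrb4a* in both cell types. How far these reflect depth or the sequence it shares with its neighbours was not tested.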
